A study of Danio rerio with 9 samples.

Results

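The matrix Gla proteins of cartilage and bone were followed through 3 sorted cell populations of the zebrafish. The study names them notochord sheath, an epithelium that wraps the vacuolated core of the notochord. That name was not tested here, and the marker levels given below differ between the populations, with osteoblast markers highest in entpd5a+ libraries. The genes were ucmaa (ENSDARG00000027799) and ucmab (ENSDARG00000005485; unique cartilage matrix-associated protein, also called Gla-rich protein), mgp (ENSDARG00000086189, matrix Gla protein), bglap (ENSDARG00000058414, osteocalcin) and bglapl (ENSDARG00000104467, osteocalcin-like). They were taken by gene symbol, and an unlettered UCMA entry was taken as ucmab. These are 5 of the 32266 gene IDs counted, and 4 of them passed the filter on low counts that left 19039 genes to test. Reads that ucmaa and ucmab might share were not traced.

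Gla proteins are secreted proteins in which the enzyme gamma-glutamyl carboxylase turns chosen glutamates into gamma-carboxyglutamate (Gla), with reduced vitamin K as its cofactor. The Gla residues bind calcium ions and mineral, and vitamin K epoxide reductase recycles the spent cofactor. Osteocalcin is best known from osteoblasts and Gla-rich protein from cartilage, while matrix Gla protein is known in the mouse as an inhibitor of calcification in arteries and cartilage.

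Cells came from fish of strain EK at 13 days after fertilization and were sorted by fluorescence into entpd5a+, double-positive (col9a2 and entpd5a) and col9a2+ populations, with 3 libraries each made by an ultra-low-input protocol. entpd5a encodes a phosphate-releasing enzyme needed for bone mineralization, and col9a2 encodes a chain of cartilage collagen IX. All fish are called transgenic in the study design, whereas the genotype label reads wild type, and the labels do not describe the reporter constructs. The labels also do not say whether the 3 libraries of a population are separate animals, pools or sorts, so each p measures the spread between these libraries, which may be technical.

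Levels are CPM, counts relative to the library total, scaled between libraries with TMM factors, and they depend on transcript length, so they were compared only between libraries and not between genes. A gene was called at an edgeR adjusted p under 0.05 over all genes tested, and each pair of the 3 comparisons shares a population. The 9 libraries held 39955994 to 81471212 counts. Libraries 2 and 3 of entpd5a+, library 3 of double-positive and library 3 of col9a2+ were the 4 deeper ones, with at least 67788360 counts, and in them the heat shock gene hsp70l stood at 17953 to 27145 CPM, against 277 to 909 CPM in the 5 shallower libraries. The sort gene COL9A2 stood at 64.7 to 429 CPM in entpd5a+, 811 to 1578 CPM in double-positive and 7734 to 11555 CPM in col9a2+ libraries. ENTPD5, the other sort gene, stood at 3141 to 5676 CPM in entpd5a+, 10365 to 18661 CPM in double-positive and 129 to 452 CPM in col9a2+ libraries. Of 9 notochord markers, 8 passed the count filter, among them both SHH genes, which does not show similar levels in all 3 populations. The SHH genes stood at 12.1 to 34.6 and 56.7 to 128 CPM in entpd5a+ libraries. They stood at 423 to 861 and 1100 to 1544 CPM in double-positive, and 186 to 377 and 653 to 989 CPM in col9a2+ libraries. Of the 8 markers, 4 were called lower and 0 higher in entpd5a+ against double-positive cells. The marker noto, a gene of the early notochord, had no count in any library. That allows up to 3 counts, or 0.0751 CPM before TMM scaling, in the shallowest one.

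The 4 Gla genes that could be tested did not share one pattern over the populations. ucmab was highest in col9a2+, intermediate in double-positive and lowest in entpd5a+ libraries, mgp was highest in double-positive libraries, and ucmaa was lowest there. bglapl was low in col9a2+ libraries, high in all entpd5a+ libraries and high in 1 double-positive library. When the 3 populations were compared together, 3 of the 4 were called, against 9.41% of all genes tested. The edgeR adjusted p in that test was 0.00867 for mgp, 0.0112 for ucmab and 0.0305 for ucmaa, and it was 0.126 for bglapl.

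**Figure D1:**
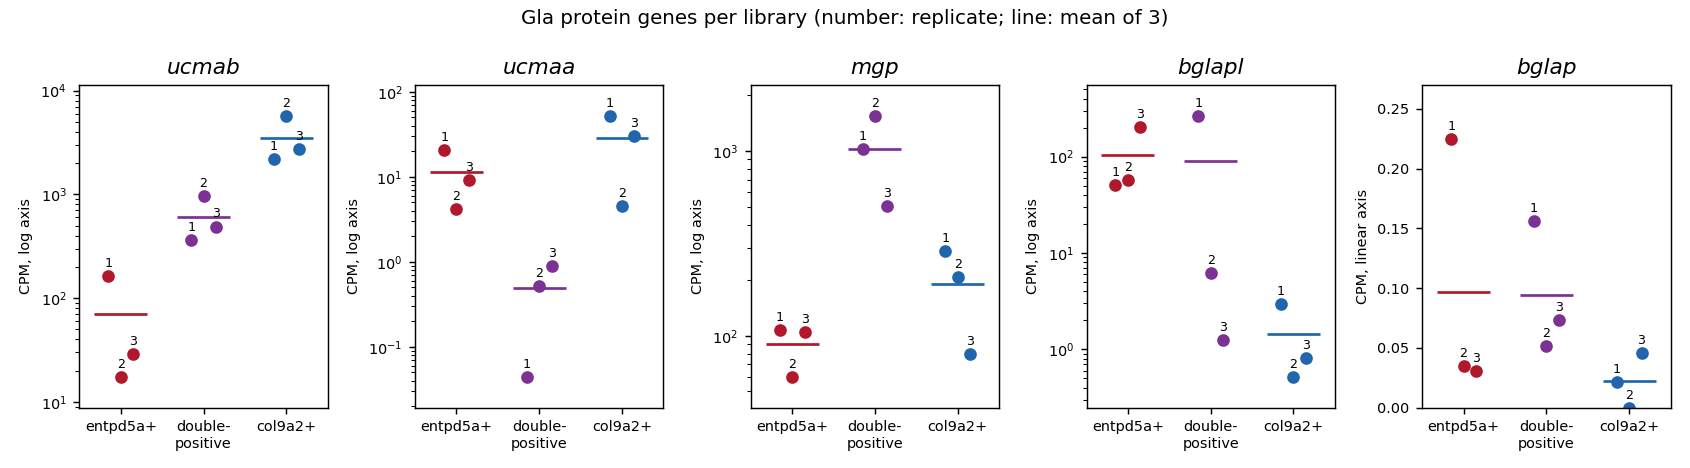
Level of each Gla gene in every library in CPM, on a log axis for ucmab, ucmaa, mgp and bglapl and on a linear axis for bglap; each point is 1 library with its replicate number, and lines are means of 3 libraries. ucmab falls into 3 separate ranges, mgp is above 500 CPM only in double-positive libraries, ucmaa is under 1 CPM only there, and bglapl spans 1.25 to 263 CPM within the double-positive population.

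ucmab had a range of its own in each population. It stood at 164, 17.6 and 29.0 CPM in entpd5a+ libraries 1 to 3, at 360.4, 956 and 489.8 CPM in double-positive libraries, and at 2174, 5666 and 2710.3 CPM in col9a2+ libraries. No 2 populations overlapped, and the lowest col9a2+ library lay above the highest library of either other population. The means were 70.1 ± 81.2 CPM in entpd5a+, 602 ± 314 CPM in double-positive and 3517 ± 1880 CPM in col9a2+ cells (SD, n = 3 each).

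In entpd5a+ against col9a2+ cells, ucmab fell by 5.65 ± 0.99 on the log2 scale (SE), a level 50.2-fold lower, with an edgeR adjusted p of 0.0116. It was the 1 of the 4 tested Gla genes called in this comparison, in which 5.02% of all genes tested were called and 2.34% were called lower. The libraries of 2 of the 4 did not overlap, against 24.7% of all genes tested. Library 1 of entpd5a+ held 7.03 times the mean ucmab level of entpd5a+ libraries 2 and 3, and without it the log2 difference was -7.24 (edgeR adjusted p = 0.00380). In that same library 13 of 22 cartilage markers were the highest of the 3 entpd5a+ libraries. The ratio to the mean of the other two had a median of 1.34 over the 22 markers and ranged over 0.526 to 19.96, with the highest for MATN1, a cartilage matrilin, at 247 CPM against 11.4 and 13.3 CPM. Of 15 osteoblast markers 7 were highest and 5 lowest in that library, and no share over all genes was computed for these counts. Library 1 was also the shallower one of entpd5a+, with hsp70l at 776 CPM against 17953 and 27023 CPM. The part of these markers and of depth in the ucmab level was not tested.

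The double-positive libraries stood between the ends. The log2 difference from col9a2+ was -2.55 ± 0.86 (edgeR adjusted p = 0.158), which did not pass in the fit of 9 libraries. Same-numbered double-positive and col9a2+ libraries deviated together, and with replicate number as the block in those 6 libraries the difference was -2.57 with an edgeR adjusted p of 5.85e-04. That pairing was taken from these data, and the fit with the block in 6 libraries was chosen after seeing them. In both populations library 3 was the deeper one with high hsp70l, so for library 3 replicate number and depth cannot be told apart. Libraries 1 and 2 were shallower in both, and ucmab was highest in library 2 of both. In entpd5a+ against double-positive cells the difference was -3.10 ± 0.88 (edgeR adjusted p = 0.0699), and without entpd5a+ library 1 it was -4.69 (adjusted p = 0.0130). Within the shallower libraries (1 against 2) the log2 difference of entpd5a+ from col9a2+ was -4.42 and within the deeper ones (2 against 1) -6.91. The call was lost in a fit of the 5 shallower libraries alone (-4.58, edgeR adjusted p = 0.103).

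ucmaa, the other Gla-rich protein gene, did not follow ucmab. It stood at 20.5, 4.13 and 9.24 CPM in entpd5a+ libraries 1 to 3, at 0.0447, 0.520 and 0.899 CPM in double-positive libraries, and at 51.6, 4.49 and 30.0 CPM in col9a2+ libraries. Every double-positive library was below every library of the other 2 populations, whereas entpd5a+ and col9a2+ libraries overlapped. The double-positive values rest on 2, 20 and 61 counts. The means were 11.3 ± 8.39 CPM in entpd5a+, 0.488 ± 0.428 CPM in double-positive and 28.7 ± 23.6 CPM in col9a2+ cells (SD, n = 3 each).

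In double-positive against col9a2+ cells, ucmaa fell by 5.85 ± 1.20 on the log2 scale, 57.8-fold lower, with an edgeR adjusted p of 0.0283. It was the 1 of 4 tested Gla genes called there, against 3.54% of all genes tested, 1.68% higher and 1.86% lower. The libraries of 3 of the 4 did not overlap, against 24.4% of all genes tested. The call was lost without double-positive library 1 (log2 difference -5.32, edgeR adjusted p = 0.0552), double-positive library 2 (-5.88, 0.0997), col9a2+ library 1 (-5.12, 0.0932) or col9a2+ library 3 (-5.82, 0.0659). Without double-positive library 3 the difference was -6.68 (edgeR adjusted p = 0.0443), and with the replicate block in the 6 libraries it was -5.53 (adjusted p = 0.0844).

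In entpd5a+ against double-positive cells, ucmaa was 22.7-fold higher, a log2 difference of 4.51 ± 1.13 with an edgeR adjusted p of 0.0448. With 1 library left out at a time the log2 difference ranged over 3.75 to 5.33 and the adjusted p over 0.0356 to 0.141, and the call was kept only without col9a2+ library 2. In entpd5a+ against col9a2+ cells the difference was -1.35 ± 0.98 (edgeR adjusted p = 0.590). ucmaa was among the 128 genes (0.672% of those tested) that were called lower in double-positive cells in both comparisons.

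The ratio of the Gla-rich protein genes within a library does not depend on how libraries are scaled. ucmaa had 0.125, 0.235 and 0.319 counts per ucmab count in entpd5a+ libraries 1 to 3, against 1.24e-04, 5.43e-04 and 0.00184 in double-positive libraries and 0.0238, 7.93e-04 and 0.0111 in col9a2+ libraries. Each entpd5a+ ratio was above all 6 ratios of the other populations, which overlapped each other. As a share of the counts of both genes, ucmaa made up 11.1% to 24.2% in entpd5a+, 0.0124% to 0.183% in double-positive and 0.0792% to 2.32% in col9a2+ libraries.

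**Figure D2:**
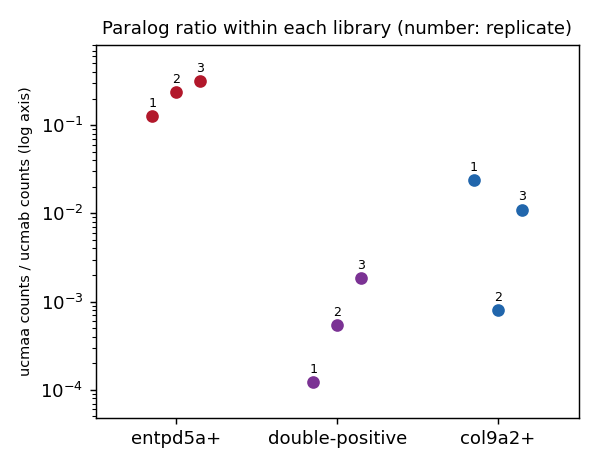
Counts of ucmaa per count of ucmab within each library, on a log axis; each point is 1 library with its replicate number. The 3 entpd5a+ libraries lie at 0.125 to 0.319, and the highest of the other 6 libraries lies at 0.0238.

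mgp, the calcification inhibitor, peaked in the double-positive cells. It stood at 108, 60.2 and 104 CPM in entpd5a+ libraries 1 to 3, at 1027, 1544 and 504 CPM in double-positive libraries, and at 287, 207 and 80.0 CPM in col9a2+ libraries. All double-positive libraries were above all others, and the entpd5a+ and col9a2+ libraries overlapped. The means were 90.8 ± 26.6 CPM in entpd5a+, 1025 ± 520 CPM in double-positive and 191 ± 104 CPM in col9a2+ cells (SD, n = 3 each).

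In entpd5a+ against double-positive cells, mgp fell by 3.50 ± 0.61 on the log2 scale, 11.3-fold lower, with an edgeR adjusted p of 0.0110. mgp and ucmaa were the 2 of 4 tested Gla genes called in that comparison, in which 6.51% of all genes tested were called, 3.06% higher and 3.45% lower. The libraries of 3 of the 4 did not overlap, against 26.1% of all genes tested. The mgp call was lost without entpd5a+ library 2 (log2 difference -3.27, edgeR adjusted p = 0.0517) and was kept without any other single library. In the shallower libraries (1 against 2) the log2 difference was -3.54 and in the deeper ones (2 against 1) -2.67.

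The mgp difference of double-positive from col9a2+ cells just missed the threshold, at a log2 difference of 2.42 ± 0.58 (5.36-fold) and an edgeR adjusted p of 0.0540. With replicate number as the block it was 2.47 with an adjusted p of 0.0344 in the 9 libraries, and 2.44 with an adjusted p of 0.00312 in the 6 libraries. That pairing was taken from these data, and library 3 was the deeper one in both populations. The log2 difference was 2.37 in the shallower libraries (2 against 2) and 2.66 in the deeper ones (1 against 1). Without double-positive library 3 it was 2.75 (edgeR adjusted p = 0.0378). In entpd5a+ against col9a2+ cells mgp differed by -1.08 ± 0.56 (edgeR adjusted p = 0.391). That difference was -1.18 in the shallower libraries (1 against 2) and -0.01 in the deeper ones (2 against 1).

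**Figure D3:**
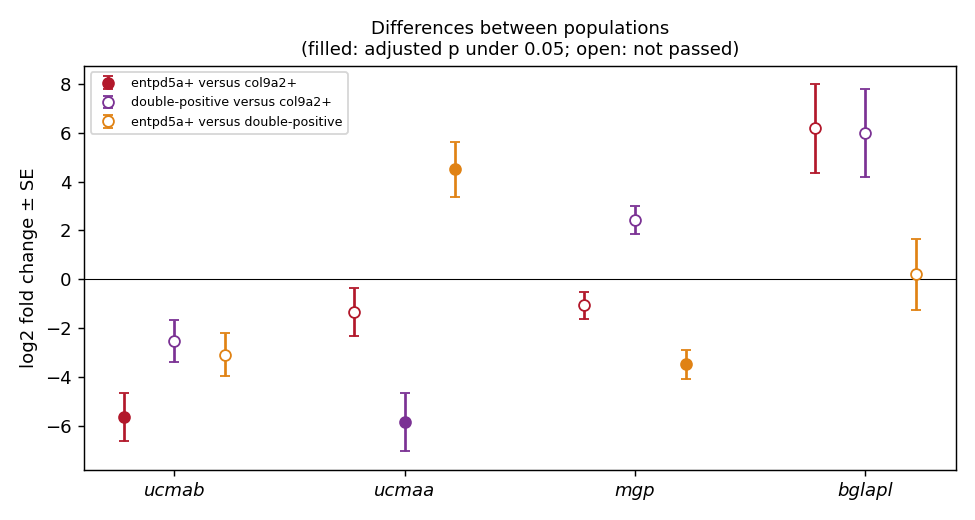
Log2 fold changes of the 4 tested Gla genes with their standard errors, for entpd5a+ versus col9a2+, double-positive versus col9a2+ and entpd5a+ versus double-positive; filled points have an edgeR adjusted p under 0.05. Filled points are ucmab at -5.65, ucmaa at -5.85 and 4.51, and mgp at -3.50.

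Counts of ucmab per count of mgp separated col9a2+ cells from the rest. The ratio was 1.52, 0.292 and 0.278 in entpd5a+ libraries 1 to 3, 0.351, 0.620 and 0.971 in double-positive libraries, and 7.58, 27.3 and 33.9 in col9a2+ libraries. Every col9a2+ ratio was above every other, and entpd5a+ and double-positive ratios overlapped. The 5 Gla genes together took 0.0326%, 0.0148% and 0.0335% of all counts in entpd5a+ libraries, 0.177%, 0.210% and 0.0905% in double-positive libraries and 0.294%, 0.545% and 0.325% in col9a2+ libraries. ucmab supplied 8.41% to 47.7% of those Gla counts in entpd5a+, 21.8% to 49.2% in double-positive and 86.4% to 96.4% in col9a2+ libraries.

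Of the osteocalcin genes, bglapl was detected in every library and bglap had at most 10 counts in any. bglapl stood at 50.8, 57.1 and 202 CPM in entpd5a+ libraries 1 to 3, at 263, 6.13 and 1.25 CPM in double-positive libraries, and at 2.95, 0.521 and 0.812 CPM in col9a2+ libraries. All entpd5a+ libraries were above all col9a2+ libraries, while the double-positive population held both the highest library of all 9 and one within the col9a2+ range. The means were 103 ± 85.6 CPM in entpd5a+, 90.0 ± 150 CPM in double-positive and 1.43 ± 1.33 CPM in col9a2+ cells (SD, n = 3 each).

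The log2 difference of bglapl in entpd5a+ against col9a2+ cells was 6.18 ± 1.82, or 72.4-fold, with an edgeR adjusted p of 0.0929, so it did not pass in the fit of 9 libraries. Without double-positive library 1, which enters only through the shared estimate of spread, the difference was 6.18 with an adjusted p of 0.0108, and without double-positive library 3 the adjusted p was 0.0353. In the 6 entpd5a+ and col9a2+ libraries alone the adjusted p was 0.0114. The log2 difference was 5.30 in the shallower libraries (1 against 2) and 6.99 in the deeper ones (2 against 1).

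The double-positive comparisons of bglapl rested on library 1 of that population. Against col9a2+ the log2 difference was 5.98 ± 1.80 (edgeR adjusted p = 0.115), and without that library it was 1.37 (adjusted p = 0.560). In entpd5a+ against double-positive cells the difference was 0.20 ± 1.44 (edgeR adjusted p = 0.964), and without that library it was 4.81 (adjusted p = 0.0471).

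Double-positive library 1 also differed from its replicates in other marker genes, most in the endothelial list. Its bglapl level was 71.1 times the mean of double-positive libraries 2 and 3, and its ucmaa level was 0.0630 times that mean. Of 15 osteoblast markers 12 were the highest of the 3 double-positive libraries there, with a median ratio of 2.55 and a maximum of 4.62. IFITM5, an osteoblast membrane protein, stood at 1153 CPM against 253 and 256 CPM, and SP7, the osteoblast transcription factor osterix, at 43.8 CPM against 12.4 and 18.3 CPM. The osteoblast markers RUNX2 and ENTPD5 were lowest in library 1, with RUNX2 at 4.76 CPM against 8.73 and 13.7 CPM. All 9 endothelial markers were also highest in library 1, with a median ratio of 26.3. The endothelial receptor kdrl stood at 62.0 CPM there, against 0.338 and 1.39 CPM, and the junction protein gene cdh5 at 67.3 CPM, against 0.0260 and 0.265 CPM. Of 9 notochord markers, among them noto without any count, 5 were lowest in that library. Of 22 cartilage markers 13 were lowest and 3 highest there. Of 12 tendon and fibroblast markers 5 were highest and 1 lowest, with a median ratio of 1.26. The share of all genes that were highest or lowest was computed neither for this library nor for entpd5a+ library 3, so these counts have no background. In entpd5a+ library 3 bglapl was 3.75 times the mean of the other entpd5a+ libraries. There 10 of 15 osteoblast markers were lowest and 0 highest, with a median ratio of 0.619. The part of marker levels in the bglapl level of either library was not tested.

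**Figure D4:**
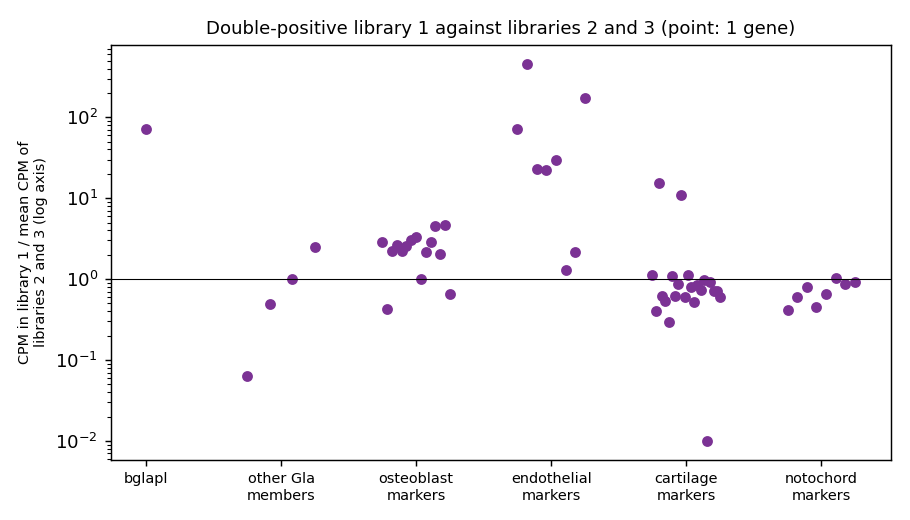
Level in double-positive library 1 divided by the mean of double-positive libraries 2 and 3, on a log axis, for bglapl, other Gla genes and 4 marker lists; each point is 1 gene, and TIE1 and noto, with no count in libraries 2 and 3, have no ratio. bglapl lies at 71.1, the osteoblast markers reach at most 4.62, and endothelial markers reach up to 462.

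bglap was at the edge of detection everywhere. It had 10, 3 and 2 counts in entpd5a+ libraries 1 to 3, 7, 2 and 5 counts in double-positive libraries, and 1, 0 and 4 counts in col9a2+ libraries. The highest level was 0.225 CPM, in entpd5a+ library 1, and a count of 0 in col9a2+ library 2 allows up to 0.0690 CPM before TMM scaling. No population was separated from both others, the gene did not pass the count filter, and no difference was detectable at this depth. In the RefSeq annotation of the later assembly GRCz12tu, bglap and mgp lie on chromosome 3 with 0 annotated genes between them.

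Cell type markers also differed between the populations. Osteoblast markers without the sort gene ENTPD5 (14 genes) summed to 114019 to 206279 CPM in entpd5a+, 17957 to 44393 CPM in double-positive and 20039 to 22612 CPM in col9a2+ libraries, and 12 of 15 including ENTPD5 rose in entpd5a+ against col9a2+ cells (median log2 difference 3.98, against 0.02 and 2.68% called higher for all genes tested). Cartilage markers without COL9A2 (21 genes) summed to 2845 to 7199.7 CPM in entpd5a+, 18363 to 31088 CPM in double-positive and 76024 to 106418 CPM in col9a2+ libraries. Including COL9A2, 14 of 22 fell in entpd5a+ against col9a2+ cells (median -3.89, against 2.34% called lower for all genes). ENTPD5 and COL9A2 were themselves among the genes called, and their difference follows from the sort. Notochord markers summed to 6903 to 14240.1 CPM in entpd5a+, 29754 to 47168 CPM in double-positive and 5216 to 6929 CPM in col9a2+ libraries, and 4 of 8 tested rose in double-positive against col9a2+ cells (median 1.54, against 0.01 and 1.68% called higher for all genes).

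By adjusted p the leading osteoblast markers were PHEX, PANX3 and runx2b, with log2 differences of 5.07, 5.68 and 4.52 in entpd5a+ against col9a2+ cells. The leading cartilage markers were chad, a MATN3 gene and a SOX9 gene, which differed by -4.63, -3.84 and -3.93 in the same comparison. Tendon and fibroblast markers (12 genes) summed to 1448 to 2209 CPM in entpd5a+, 91.3 to 295 CPM in double-positive and 387 to 719 CPM in col9a2+ libraries, and 10 of 12 rose in entpd5a+ against double-positive cells (median 3.11, against 0.07 and 3.06% called higher for all genes). In bulk samples fewer cells of a type and less RNA per cell cannot be told apart, and the part of such cells in the Gla gene levels was not tested.

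The 5 named genes most like each Gla gene were taken by the root mean square difference of mean-centred log2 CPM over the 9 libraries, among 5504 or 5505 genes whose mean reached 20 CPM. For ucmab they were si:dkey-234i14.3 (0.30 log2 units), COL9A2 (0.41), si:dkeyp-118a3.2 (0.43), ccn6 (0.47) and acanb (0.54), against a median of 2.73 over all candidates. COL9A2 is a sort gene. acanb encodes the cartilage proteoglycan aggrecan, at 3.45 ± 3.17 CPM in entpd5a+, 40.2 ± 9.96 CPM in double-positive and 124 ± 50.7 CPM in col9a2+ libraries (SD, n = 3 each). For mgp they were ENAH (0.38), crip1 (0.42), si:ch211-1a19.3 (0.47), GNPDA1 (0.48) and nhej1 (0.53), against a median of 1.58.

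ucmaa and bglapl had no neighbour as close. For ucmaa the nearest were RHBG (1.18), si:ch211-251b21.1 (1.21), hapln1a (1.24), tmem176l.4 (1.30) and zgc:92380 (1.37), against a median of 3.00. hapln1a, which encodes a link protein that ties aggrecan to hyaluronan, stood at 47.2 ± 13.4 CPM in entpd5a+, 5.99 ± 7.95 CPM in double-positive and 44.9 ± 18.6 CPM in col9a2+ libraries (SD, n = 3 each). For bglapl they were bmp16 (1.60), fgfbp2a (1.61), enam (1.65), IFITM5 (1.73) and CCN4 (1.73), against a median of 3.31. Each median lies near the distance of a gene that does not vary. That distance is 2.71 for ucmab, 1.57 for mgp, 2.86 for ucmaa and 3.25 for bglapl. All of these likenesses are descriptions over 9 libraries that share their scaling.

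The genes for the enzymes that make and recycle the Gla modification were mostly not called. All 8 genes of the vitamin K cycle list were tested, and none was called in entpd5a+ against col9a2+ or in double-positive against col9a2+ cells, where edgeR adjusted p values were at least 0.139 and 0.133. Over all genes tested 5.02% and 3.54% were called, so a list of 8 genes without a call lies near those shares. At an unadjusted edgeR p under 0.05 there were 2 and 1 of 8, for which no share over all genes was computed. DESeq2 called 2 and 1 of 8, and it called more of all genes than edgeR did (2158 against 955 in the first comparison). GGCX, the carboxylase itself, stood at 101, 85.8 and 39.0 CPM in entpd5a+ libraries 1 to 3, at 47.3, 83.7 and 42.2 CPM in double-positive libraries and at 65.9, 99.2 and 52.1 CPM in col9a2+ libraries. Its 3 populations overlapped throughout. VKORC1, the epoxide reductase, stood at 19.97, 23.5 and 11.96 CPM in entpd5a+ libraries, at 13.1, 16.9 and 11.3 CPM in double-positive libraries and at 20.2, 56.3 and 30.5 CPM in col9a2+ libraries. Its log2 difference was -1.37 ± 0.44 in double-positive against col9a2+ cells (edgeR adjusted p = 0.133) and -0.95 ± 0.43 in entpd5a+ against col9a2+ cells (adjusted p = 0.305).

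NQO1, a quinone reductase, was the 1 of 8 called, and lower, in entpd5a+ against double-positive cells, where 3.45% of all genes tested were called lower. It stood at 9.23, 9.28 and 6.81 CPM in entpd5a+ libraries, against 23.1, 26.8 and 20.6 CPM in double-positive libraries, with 16.3, 17.4 and 13.1 CPM in col9a2+ libraries. No populations overlapped. The log2 difference of entpd5a+ from double-positive was -1.48 ± 0.31 (edgeR adjusted p = 0.0220). The call was lost without entpd5a+ library 2 (-1.55, adjusted p = 0.0682), entpd5a+ library 3 (-1.36, 0.0605) or double-positive library 2 (-1.37, 0.0974). It was also lost in the 6 libraries of the 2 populations (-1.50, edgeR adjusted p = 0.0604), with the replicate block there (-1.50, 0.0772) and in the 5 shallower libraries (-1.41, 0.162).

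The remaining genes of the cycle list were not called by edgeR in any comparison. VKORC1L1, the paralog of the epoxide reductase, differed by at most 0.76 log2 units, and AIFM2, a vitamin K reductase, by at most 0.12. Of the calumenin genes, which encode calcium-binding proteins of the secretory pathway, calub differed by at most 0.85 and CALU by at most 0.50. For calub all entpd5a+ libraries (95.1 to 122 CPM) were above all others (42.5 to 68.7 CPM). Libraries did not overlap for 24.7% of all genes tested in entpd5a+ against col9a2+ and 26.1% in entpd5a+ against double-positive cells. cyp4f3, of a cytochrome P450 family that oxidizes vitamin K in humans, stood at or under 2.55 CPM in all libraries. The median log2 difference over the 8 genes was -0.20 in entpd5a+ against col9a2+, -0.41 in double-positive against col9a2+ and 0.41 in entpd5a+ against double-positive cells. Over all genes tested the medians were 0.02, 0.01 and 0.07.

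**Figure D5:**
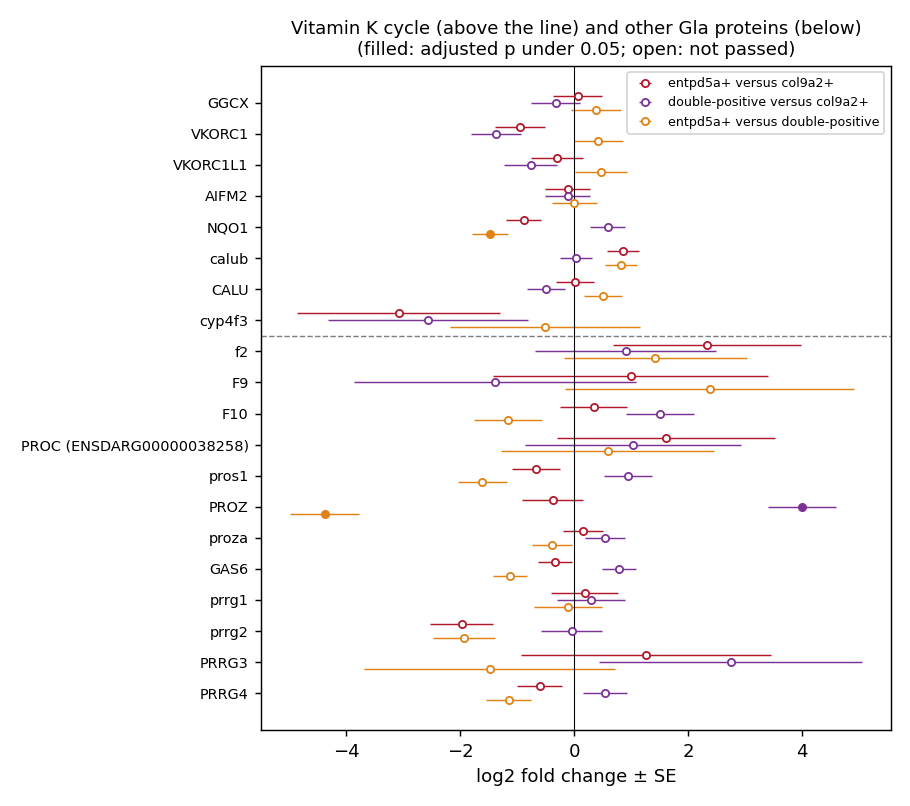
Log2 fold changes with standard errors in the 3 comparisons for 8 vitamin K cycle genes (above the dashed line) and 12 other Gla-domain protein genes (below); filled points have an edgeR adjusted p under 0.05. Filled points are NQO1 at -1.48 and PROZ at 4.0 and -4.38.

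Among 12 tested genes for other Gla-domain proteins, mostly clotting factors and membrane Gla proteins, PROZ was called. It encodes protein Z, known in human plasma as a cofactor for inhibition of factor Xa. It stood at 4.28, 3.79 and 4.25 CPM in entpd5a+ libraries, at 59.3, 126 and 70.3 CPM in double-positive libraries, and at 2.12, 10.1 and 3.80 CPM in col9a2+ libraries. All double-positive libraries were above all others, as for mgp. The other protein Z gene, proza, did not share this. Its libraries stood at 50.2 to 154 CPM, and its populations overlapped in every comparison (edgeR adjusted p at least 0.523). Over all genes tested, 1.68% were called higher in double-positive against col9a2+ cells and 3.45% lower in entpd5a+ against double-positive cells. PROZ rose by 4.0 ± 0.60 on the log2 scale in the first of these comparisons (edgeR adjusted p = 0.00805) and fell by 4.38 ± 0.61 in the second (adjusted p = 0.00472). Both calls were kept with any 1 library left out, and without col9a2+ library 2 the difference was 4.85 (adjusted p = 0.00786). In the 5 shallower libraries alone the differences were 3.90 and -4.41, with edgeR adjusted p values of 0.0982 and 0.148.

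No other gene of that list was called by edgeR. In entpd5a+ against col9a2+ cells 1 of 12 had an unadjusted edgeR p under 0.05 and DESeq2 called 1. In double-positive against col9a2+ cells 4 had such a p and DESeq2 called 1, and in entpd5a+ against double-positive cells 5 had such a p and DESeq2 called 4. The share of all genes with such a p was not computed. Over all genes DESeq2 called 2872 in the last comparison, where edgeR called 1239. pros1, the anticoagulant protein S, differed by -1.61 ± 0.43 in entpd5a+ against double-positive cells (edgeR adjusted p = 0.0541) and GAS6, a ligand of TAM receptor kinases, by -1.12 ± 0.30 (adjusted p = 0.0590). The median log2 difference of the 12 genes was 0.17 in entpd5a+ against col9a2+, 0.84 in double-positive against col9a2+ and -1.14 in entpd5a+ against double-positive cells. Over all genes tested the medians were 0.02, 0.01 and 0.07.

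Other genes known to restrain calcification were read beside mgp. Of 13 tested, 3 rose in entpd5a+ against col9a2+ cells, where 2.68% of all genes rose. NT5E, which makes extracellular adenosine, stood at 109, 96.9 and 119 CPM in entpd5a+ libraries, against 11.2, 15.2 and 10.6 CPM in col9a2+ libraries (log2 difference 3.14 ± 0.44, edgeR adjusted p = 0.00493). spp1, which encodes osteopontin, stood at 1739.7, 2375 and 2972 CPM in entpd5a+ libraries, against 117, 19.8 and 59.8 CPM in col9a2+ libraries (5.17 ± 0.89, adjusted p = 0.0108). For both genes the entpd5a+ libraries were above all others, and the double-positive and col9a2+ libraries overlapped. Both calls were kept with any 1 library left out, with a spp1 difference of 5.89 without col9a2+ library 1. Both were lost in the 5 shallower libraries, at 3.04 for NT5E (edgeR adjusted p = 0.114) and 4.65 for spp1 (adjusted p = 0.251).

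STC2 (ENSDARG00000056680), a stanniocalcin gene, stood at 523, 233 and 87.0 CPM in entpd5a+ libraries, against 43.3, 50.8 and 33.1 CPM in col9a2+ libraries, without overlap. Its log2 difference was 2.73 ± 0.57 (edgeR adjusted p = 0.0248), or 1.92 without entpd5a+ library 1 (adjusted p = 0.0367). The call was lost without entpd5a+ library 2 (2.85, adjusted p = 0.0592) or without col9a2+ library 1 (2.74, 0.102), 2 (2.88, 0.0963) or 3 (2.58, 0.0927). The other STC2 gene, at 2.66 to 16.9 CPM, was not called in any comparison.

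enpp1 encodes the enzyme that makes pyrophosphate, an inhibitor of mineral growth, and, like mgp, it was highest in double-positive cells. It stood at 219, 518 and 427 CPM in entpd5a+ libraries, at 924, 1379 and 1746 CPM in double-positive libraries, and at 138, 225 and 202 CPM in col9a2+ libraries. All double-positive libraries were above all others. enpp1 rose in double-positive against col9a2+ cells by 2.84 ± 0.47 (edgeR adjusted p = 0.0115), a call lost without col9a2+ library 1 (2.66, adjusted p = 0.0691). In entpd5a+ against double-positive cells it fell by 1.80 ± 0.45 (edgeR adjusted p = 0.0451), and no setting with 1 library left out kept that call, with differences of -2.06 to -1.51 and adjusted p values of 0.0535 to 0.119, nor did RLE scaling (-1.72, 0.0507).

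NT5E and ANKH (ENSDARG00000014969), a pyrophosphate exporter gene, rose in entpd5a+ against double-positive cells. NT5E stood at 24.4, 7.51 and 12.4 CPM in double-positive libraries and differed by 2.88 ± 0.44 (edgeR adjusted p = 0.00658), with every library left out in turn giving 2.57 to 3.44 and a call, which was lost in the 5 shallower libraries (2.78, adjusted p = 0.106). ANKH stood at 7.45, 31.6 and 37.1 CPM in entpd5a+ libraries, against 4.14, 5.59 and 3.80 CPM in double-positive libraries, without overlap (2.49 ± 0.62, edgeR adjusted p = 0.0422). Its leave-one-out differences were 2.11 to 2.93 with adjusted p values of 0.0133 to 0.125, and in the 5 shallower libraries the difference was 0.64 (adjusted p = 0.650). The median log2 difference of the 13 calcification genes was 1.89 in entpd5a+ against col9a2+, 1.38 in double-positive against col9a2+ and 1.25 in entpd5a+ against double-positive cells.

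In the mouse and in cultured cells matrix Gla protein binds bone morphogenetic protein 2 and 4, so these ligands and other extracellular antagonists were read beside mgp. Of 7 tested genes, 4 rose in entpd5a+ against col9a2+ cells, 1 rose in double-positive against col9a2+ cells, and 3 rose and 1 fell in entpd5a+ against double-positive cells. The shares over all genes tested were 2.68% and 1.68% higher in the first 2 comparisons, and 3.06% higher and 3.45% lower in the last. The genes named from this list were chosen after their values were seen. nog2, which encodes a noggin, stood at 51.0, 42.0 and 82.9 CPM in entpd5a+ libraries, at 394, 510.3 and 567 CPM in double-positive libraries and at 16.8, 29.1 and 6.98 CPM in col9a2+ libraries. All double-positive libraries were above all others, the arrangement also seen for mgp, PROZ and enpp1. It is not particular to these genes. Of the notochord markers, both SHH genes, col8a1a, loxl5b, krt8 and krt18a.1 had it too. The share of all genes with it was not computed, and 24.4% and 26.1% did not overlap in the 2 double-positive comparisons taken singly. nog2 rose by 4.80 ± 0.58 in double-positive against col9a2+ cells (edgeR adjusted p = 0.00412), and fell by 3.06 ± 0.54 in entpd5a+ against double-positive cells (adjusted p = 0.0110), a call lost without entpd5a+ library 2 (-2.87, 0.0526). PROZ, enpp1 and nog2 were among the 166 genes (0.872% of those tested) called higher in double-positive cells in both comparisons, and mgp, called in 1 of them, was not.

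BMPER, a secreted BMP-binding protein, was highest in entpd5a+ cells. It stood at 404, 527 and 313 CPM in entpd5a+ libraries, at 77.3, 16.8 and 46.0 CPM in double-positive libraries and at 30.4, 8.81 and 21.6 CPM in col9a2+ libraries. All entpd5a+ libraries were above all others, and the other populations overlapped. BMPER rose by 4.35 ± 0.66 in entpd5a+ against col9a2+ cells (edgeR adjusted p = 0.00660) and by 3.15 ± 0.63 against double-positive cells (adjusted p = 0.0175), the second call being lost without entpd5a+ library 2 (2.94, 0.0556). In the 5 shallower libraries both calls were lost, at 4.34 (edgeR adjusted p = 0.166) and 3.11 (adjusted p = 0.228). The other genes called in this list were 2 BMP2 genes, in both entpd5a+ comparisons, and BMP4 in entpd5a+ against col9a2+ cells, with log2 differences of 2.12 to 3.81. None of these 5 calls held with every single library left out, and edgeR adjusted p values then reached 0.159 for BMP4, 0.148 and 0.0781 for the BMP2 genes against col9a2+, and 0.0898 and 0.111 for them against double-positive cells. The median log2 difference of the 7 genes was 2.33 in entpd5a+ against col9a2+, 1.20 in double-positive against col9a2+ and 2.06 in entpd5a+ against double-positive cells. Over all genes tested the medians were 0.02, 0.01 and 0.07. The list medians are the values of chrd, BMPER and a GREM1 gene, none called in that comparison, with chrd at most 11.3 CPM and GREM1 at most 1.09 CPM.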

How the data were processed

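Total RNA from 9 libraries of sorted cells, named notochord sheath in the study, was sequenced. HISAT2, HTSeq and GRCz10 are the aligner, counter and build named, per the submitters' processing notes; versions and strand setting are not given in the sources used here. The deposited values are raw counts per Ensembl gene.

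Genes were named from a table that covered 26433 of 32266 IDs, many in capitals without the paralog letter. The tests used edgeR 4.0.16 in R 4.3.3, with filterByExpr, TMM factors, a robust quasi-likelihood fit of the 3 populations over all 9 libraries, two-sided F tests and Benjamini-Hochberg adjustment over the 19039 genes tested. Each standard error is the size of the log2 fold change over the square root of F; log2 CPM uses a prior count of 2. The procedure was tested on simulated data.

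Named genes are the Gla genes, the vitamin K cycle, called genes of the other Gla and calcification lists, leading cell type markers, the 5 most similar genes per member and the sort genes. The members and lists were chosen with earlier results of these data known, and 1 gene is not reported here. Of the list entries, 73 matched a name exactly, 48 in capitals and 42 without the paralog letter, 11 were ambiguous and 16 had no match.

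Same-numbered double-positive and col9a2+ libraries deviated together around the mean of their population (correlations across genes of 0.18, 0.22 and 0.33), so the replicate number was taken to pair them. This comes from the data, since the labels do not state it, and libraries of different numbers were not compared in this way. In both populations library 3 was the deeper one with high hsp70l, so for library 3 a shared replicate cannot be told apart from shared depth. Each test was repeated with DESeq2 1.42.0, without a count filter, with a mean of 10 CPM or more, with RLE or upper-quartile factors, and with 6 libraries, the replicate block, a depth term or 1 library left out. The replicate block in 6 libraries and the 5 shallower libraries alone were chosen after seeing the data. Floors of 3 counts cover counting error only, whereas the SDs and standard errors also hold the spread between libraries.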

Additional observations from a re-analysis of the deposited data

How the results depend on the processing

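Across the alternatives 215 of the values for the Gla genes and the counts of called genes kept their direction and side of the threshold, 22 lost a call, 22 gained one, 19 counts moved by over 1.5 times and 4 values changed sign. Scaling with RLE or upper-quartile factors was behind none of these changes. The counts of called genes were 955 in entpd5a+ against col9a2+, 674 in double-positive against col9a2+ and 1239 in entpd5a+ against double-positive cells. With DESeq2 they were 2158, 2024 and 2872. In the 5 shallower libraries the counts for the entpd5a+ comparisons were 202 against col9a2+ and 455 against double-positive cells, and in the 6 entpd5a+ and double-positive libraries alone the count was 758. For double-positive against col9a2+ cells the count was 1024 with the replicate block, 2228 with the block in 6 libraries and 1314 with a depth term. With each library left out the counts ranged over 353 to 994, 242 to 787 and 525 to 1064. They moved most without entpd5a+ library 2 (403 against col9a2+ and 525 against double-positive cells), double-positive library 2 (347 and 551 in its comparisons) and col9a2+ libraries 1 (483 and 242), 2 (353 and 270.0) and 3 (574 and 373).

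In entpd5a+ against col9a2+ cells, ucmab differed by -4.58 (edgeR adjusted p = 0.103) in the shallower libraries, with a leave-one-out range of -7.24 to -5.12. bglapl passed at 6.18 in 6 libraries (adjusted p = 0.0114), at 7.17 with the replicate block (0.0391) and at 6.31 with the block in 6 libraries (0.00607), with a leave-one-out range of 5.20 to 7.26.

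In double-positive against col9a2+ cells, ucmaa lost its call at -5.53 with the replicate block in 6 libraries (adjusted p = 0.0844) and at -6.71 in the shallower libraries (0.136), with a leave-one-out range of -6.68 to -5.12. ucmab passed at -2.63 with DESeq2 (0.00910), at -2.57 in 6 libraries (0.0490) and at -2.57 with the block there (5.85e-04), with a leave-one-out range of -3.05 to -2.02. mgp passed at 2.43 without the count filter (0.0368), 2.31 at a mean of at least 10 CPM (0.0403), 2.34 with DESeq2 (7.07e-04), 2.47 with the replicate block (0.0344), 2.46 with the depth term (0.00711), 2.44 with the block in 6 libraries (0.00312) and 2.34 in the shallower libraries (0.0290), with a leave-one-out range of 2.00 to 2.83. bglapl ranged over 1.37 to 7.05 with a library left out.

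In entpd5a+ against double-positive cells, ucmaa lost its call at 4.51 without the count filter (0.0529), 4.50 in 6 libraries (0.0653), 4.08 with the replicate block (0.0531), 4.49 with the depth term (0.0509), 4.47 with the block in 6 libraries (0.0958) and 6.24 in the shallower libraries (0.157), with a leave-one-out range of 3.75 to 5.33. ucmab passed at -3.02 with DESeq2 (0.00131) and at -3.18 with the depth term (0.0262), with a leave-one-out range of -4.69 to -2.60. mgp ranged over -3.82 to -3.07 with a library left out. bglapl turned to -1.41 in the shallower libraries, -0.78 without entpd5a+ library 3, -0.34 without double-positive library 2 and -0.37 without double-positive library 3, and its leave-one-out range was -0.78 to 4.81. The cause was not tested for any of these. In the shallower libraries 1 library stands for entpd5a+ and is assumed to vary like the others. DESeq2 gave no adjusted p for bglapl. For the entpd5a+ comparisons the same-numbered libraries did not deviate together throughout (r of -0.11 and -0.10 for number 2), and there the block changed no call but those given here. Depth limits bglap, at 10 counts or fewer per library, and ucmaa in double-positive cells.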
